A study of Mus musculus with 8 samples.

Results

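The genes described here are the cadherins outside the classical members Cdh1, Cdh2, Cdh3 and Cdh5, together with the protocadherins. They were chosen by symbol alone, as protein-coding mouse genes named Cdh with a number, Cdhr, Pcdh, Dchs with a number, or Fat1, Fat2, Fat3 and Fat4. The rule found 99 genes among the 55401 gene rows of the table, of which 21897 are protein coding. Another row with a matching name, Pcdhgb8, is annotated as a polymorphic pseudogene and was left out. RNA from mouse airway cells was sequenced in 8 libraries, all taken 10 days after tamoxifen. The 4 control libraries have the genotype Scgb1a1cre; Cdh1F/+ and the 4 mutant-labelled libraries have Scgb1a1cre; Cdh1F/F, so the Cre, the tamoxifen and at least 1 floxed allele of Cdh1, the E-cadherin gene, are shared by both groups. Scgb1a1 encodes the main secreted protein of club cells, and its promoter drives the Cre, so club cells are the cells the recombination was aimed at. The second group is called mutant-labelled because the Cdh1 level gave no check of the labels: it was 383.5 ± 44.7 CPM in controls against 403.4 ± 6.08 CPM in the mutant-labelled group (SD, n = 4 each), where CPM is the count put on a library size common to all 8 libraries. The labels do not say which sorted fraction a library holds, whether animals were pooled or whether each library is a different animal. The p-values therefore reflect only how much these libraries vary, which may be technical.

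Cadherins are membrane proteins with repeated extracellular domains that bind calcium and hold cells together. Classical type I and type II cadherins bind catenins inside the cell, whereas the large Fat and Dachsous proteins pair across neighbouring cells in tissue polarity and growth control, and Cdh23 and Pcdh15 form the tip links of sensory hair bundles. The clustered protocadherins lie in 3 gene arrays called alpha, beta and gamma, in which each variable exon has its own promoter, and they are best known for giving neurons separate surface identities. In airways, Cdhr3 is known from ciliated cells as a rhinovirus C receptor and Pcdh1 from the epithelium.

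The libraries held markers of several cell types. Summed club markers stood at 25728 to 28093 CPM in controls and 8834 to 11176 CPM in mutant-labelled libraries, and summed alveolar type II markers at 22506 to 32163 and 24669 to 30959 CPM. Endothelial markers (3816 to 5932 CPM over all libraries) and myeloid markers (5794 to 8340 CPM) were also present. This was so although the series text describes depletion of immune and endothelial cells and selection for EPCAM. Most of the myeloid sum came from Lyz2 alone, which ran from 4841 to 7282 CPM. The next gene of that list, Chil3, ran from 271 to 807 CPM, and Ptprc from 64.1 to 204 CPM. The myeloid sum therefore mainly gives the level of Lyz2. Whether myeloid cells were its source was not tested. In such bulk samples, fewer cells of a type and less RNA per cell cannot be told apart. Total counts ran from 15111663 to 21673654 per library, and 3 counts, which a true level could reach where 0 were seen, equal 0.136 to 0.207 CPM (counting error only). Controls 2 and 3 stood apart from controls 1 and 4: the chi-square per gene was 4.88 between controls 2 and 3 and 19.97 between controls 1 and 4, but 36.4 to 45.6 across these pairs. For many members the log2 fold change moved when a pair was left out, and such values are given beside the main ones where a gene is described.

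Of the 99 genes, 66 passed the filter on low counts and 33 did not. By the quasi-likelihood test of edgeR, with Benjamini-Hochberg adjustment over all 16964 genes tested, 3 of the 66 rose, Cdhr1, Cdhr4 and Cdh24, and 2 fell, Cdh13 and Pcdhb17. That is 4.55% and 3.03% of those tested, beside 5.45% of all tested genes called higher and 2.36% called lower, so these shares are near the background. The groups did not overlap for these same 3 and 2 genes and for no other member, beside 9.75% and 7.07% of all tested genes. At an unadjusted p under 0.05 the members numbered 4 higher and 5 lower, beside 13.4% and 11.8% of all tested genes. The median log2 fold change of the 66 was -0.07, with 23 above 0 (34.8%). Over all tested genes the median was -0.01, with 49.1% above 0. The member median was -0.10 without controls 2 and 3 and -0.003 without controls 1 and 4. Of the 66, 64 reached the filter's level in every library of both groups, whereas Cdhr1 and Cdh23 reached it in all 4 mutant-labelled libraries but in 1 and 3 of the controls. The counts of called members depended on the controls: without controls 2 and 3 they were 2 higher (Cdhr1 and Cdhr4) and 0 lower of 67 by edgeR's test, beside 3.56% and 1.26% of all tested genes, and without controls 1 and 4 they were 9 and 6 of 67 (13.4% and 8.96%), beside 21.5% and 19.2% of all tested genes. Leaving out 1 library gave 2 to 4 higher and 0 to 3 lower, beside 3.0% to 8.86% and 0.85% to 6.52% of all tested genes. The lower count was 0 without control 2 or 3 and without mutant-labelled library 1, 2 or 4, and 1 without mutant-labelled library 3.

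**Figure D1:**
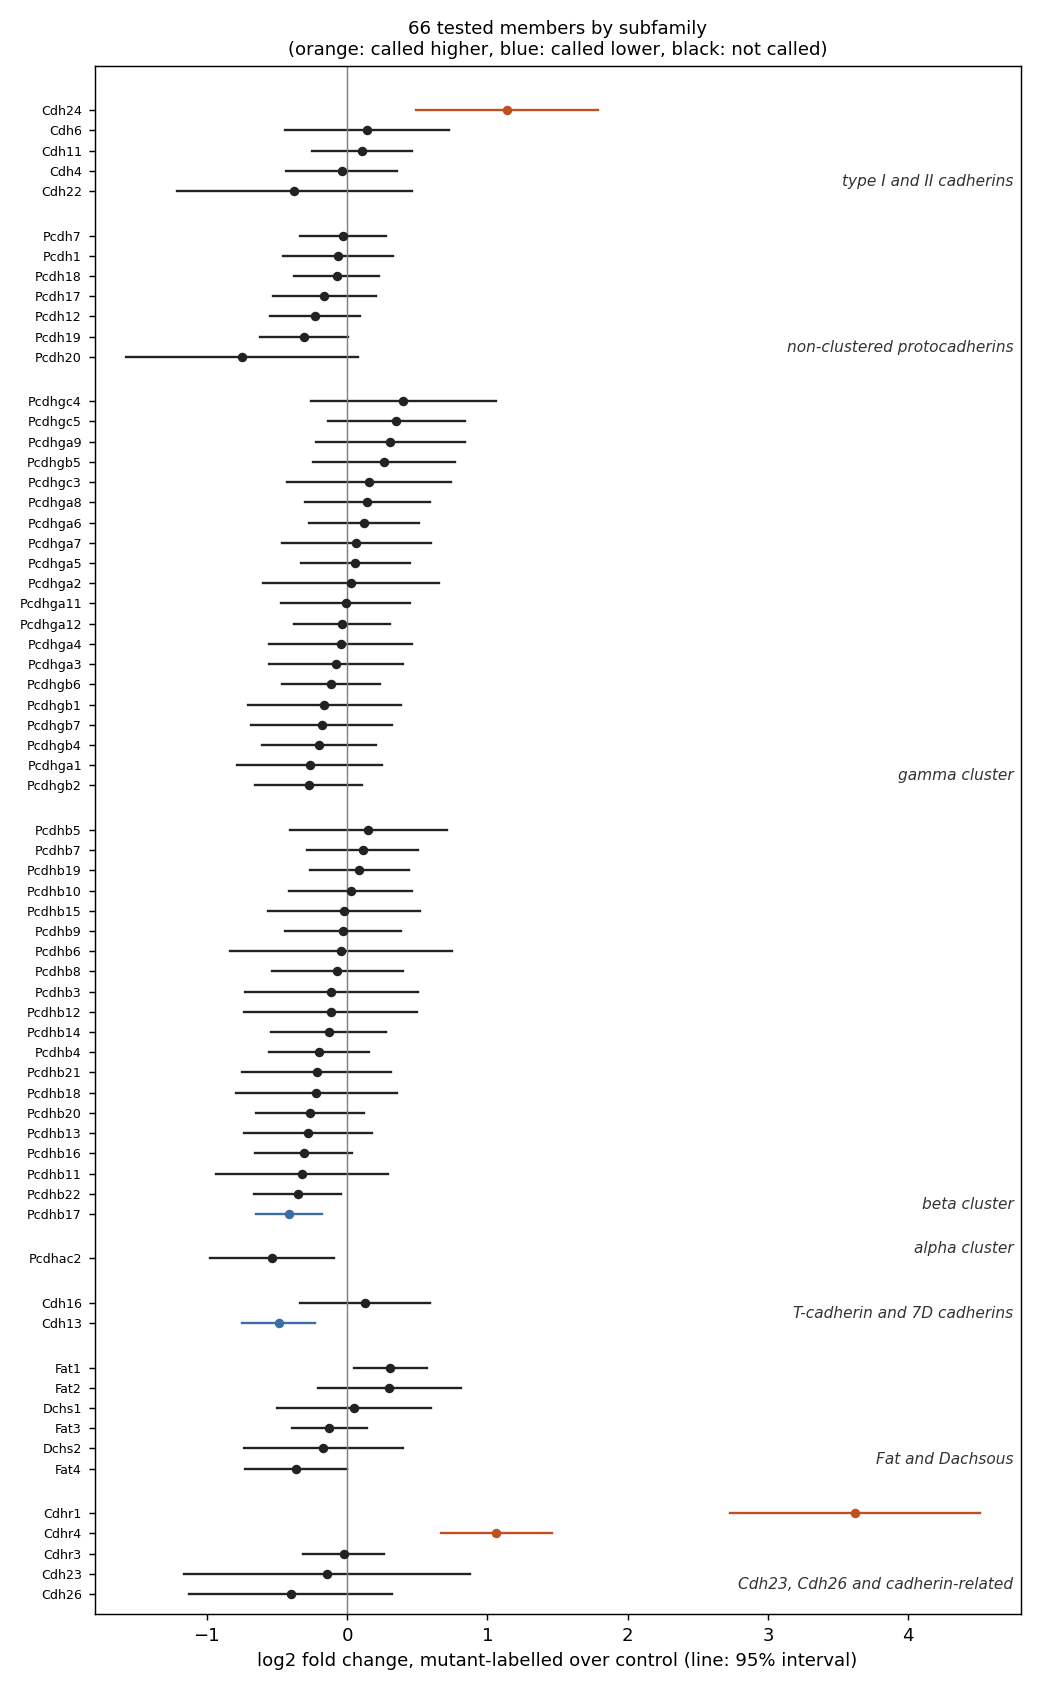
Log2 fold change of mutant-labelled over control libraries for the 66 tested members, grouped by subfamily (points: estimate; lines: 95% interval; orange: called higher, blue: called lower, black: not called). Cdhr1 at 3.62 lies far from the rest, Cdh24 and Cdhr4 lie at 1.14 and 1.06, and the remaining 63 lie between -0.75 and 0.40.

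Levels were compared between genes per kilobase of exon that no other gene shares, on the CPM scale and averaged over the 8 libraries. Pcdh1, a non-clustered protocadherin, had the highest level at 27.4 CPM per kilobase, followed by Cdhr4 at 24.6 and the gamma-cluster gene Pcdhgc3 at 17.96. The next were Cdhr3 at 12.1, Fat1 at 10.5, the mesenchymal cadherin Cdh11 at 8.32 and Pcdh12 at 7.81. Cdh16, Pcdh18 and Cdh13 followed at 4.95, 4.85 and 4.48, and Pcdhb9 and Pcdhgb6 closed the 12 highest at 3.90 and 3.62. The order differed between the groups: Cdhr4 stood at 15.9 CPM per kilobase in controls, below Pcdh1 at 27.96 and Pcdhgc3 at 16.9, and at 33.2 in mutant-labelled libraries, above Pcdh1 at 26.8 and Pcdhgc3 at 18.98. These 12 genes came from every subfamily except the alpha cluster, and Cdh11 was the only classical-type cadherin among them. At the other end, Pcdha1, Pcdha4, Pcdha6 and Pcdha7 had a count of 0 in all 8 libraries. Exon bases were shared with another annotated gene in 49 of the 99 genes, and reads over shared bases were not counted for either gene, so these levels rest on the unshared part alone.

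**Figure D2:**
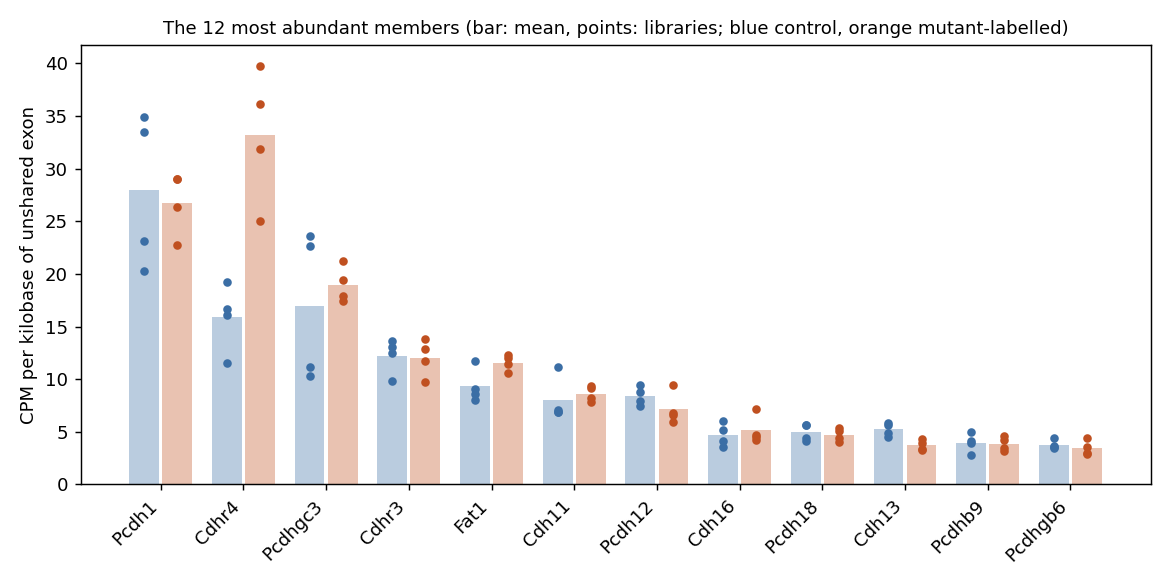
CPM per kilobase of unshared exon for the 12 members with the highest levels (bars: mean of 4 libraries; points: libraries; blue: control, orange: mutant-labelled). Cdhr4 is the gene whose points separate most, while the controls of Pcdh1 and Pcdhgc3 split into a high and a low pair.

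Among Cdh23, Cdh26 and the cadherin-related genes, Cdhr1 and Cdhr4 rose and the other 3 tested genes were not called. Cdhr1 (ENSMUSG00000021803, GRCm38 chromosome 14, 37077857 to 37098347, minus strand), the photoreceptor cadherin, stood at 0.0963, 0.551, 0.411 and 0.615 CPM in controls 1 to 4 and at 6.04, 6.05, 3.25 and 5.07 CPM in mutant-labelled libraries 1 to 4. Every mutant-labelled library lay above every control, and library 3 was the lowest of its group. Cdhr1 rose 12.3-fold (95% interval 6.63 to 22.8), from 0.418 ± 0.231 to 5.10 ± 1.32 CPM (SD, n = 4 each), with a log2 fold change of 3.62 ± 0.40 (SE) and an adjusted p of 0.000737 by the edgeR quasi-likelihood test (Benjamini-Hochberg). The control counts behind it were 2, 8, 7 and 12 reads, and the mutant-labelled counts were 105, 111, 58 and 112. The 2 reads of control 1 lie under the 3 counts that a count of 0 allows. Only 1 control reached the filter's level, so Cdhr1 entered the test through the 4 mutant-labelled libraries, where it is high. The call was kept in all 19 alternatives, with log2 fold changes from 3.26 to 3.91. Without controls 2 and 3 the log2 fold change was 3.85, and without controls 1 and 4 it was 3.40.

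Cdhr4 (ENSMUSG00000032595, chromosome 9, 107992497 to 107999684, plus strand), a cadherin-related gene of ciliated cells, stood at 23.7, 24.5, 17 and 28.4 CPM in controls and at 47.0, 58.6, 36.9 and 53.3 CPM in mutant-labelled libraries. The groups did not overlap, and library 3 was the lowest of each group. Cdhr4 rose 2.09-fold (95% interval 1.59 to 2.75), from 23.4 ± 4.74 to 48.9 ± 9.32 CPM (SD, n = 4 each), with a log2 fold change of 1.06 ± 0.18 (SE) and an adjusted p of 0.00665 by the edgeR quasi-likelihood test (Benjamini-Hochberg). The call was kept in all 19 alternatives, with log2 fold changes from 0.91 (without controls 2 and 3) to 1.24 (without controls 1 and 4). Only 1473 of its 3084 exon bases belong to no other gene. The gene that overlaps it on the same strand, Gm20661, moved in the same direction without passing the test, from 3.39 ± 1.98 to 7.65 ± 0.99 CPM (adjusted p = 0.0850 by the same edgeR test), and strand was not used in counting, so reads of the antisense genes 4921523L03Rik and 4930535L15Rik cannot be told from those of Cdhr4 where they overlap its exons alone.

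Cdhr3 (ENSMUSG00000035860, chromosome 12), the ciliated-cell receptor of rhinovirus C, did not follow Cdhr4. It stood at 56.9, 62.4, 44.8 and 59.7 CPM in controls and at 53.8, 63.0, 44.5 and 58.9 CPM in mutant-labelled libraries, so the groups overlapped over their whole range. The log2 fold change was -0.02 with a 95% interval of the ratio from 0.805 to 1.2. In the ciliated marker list 9 of 10 log2 fold changes were above 0, with a median of 0.76. By edgeR's test 6 of the 10 rose, beside 5.45% of all tested genes. At an unadjusted p under 0.05, 9 were higher, beside 13.4% of all tested genes. Foxj1, the regulator of motile cilia, had the largest log2 fold change, from 105.0 ± 20.3 to 266.2 ± 30.0 CPM. Dynlrb2, a dynein light chain, came next, from 25.3 ± 3.73 to 55.3 ± 9.40 CPM. Pifo, Dnah5, Tubb4b and Tppp3 were not called, with log2 fold changes of 0.47, 0.32, 0.22 and -0.07. Tppp3 thus stayed almost level, as Cdhr3 did. The list's summed level ran from 980 to 1208 CPM in controls and from 1228 to 1547 CPM in mutant-labelled libraries, none of its genes was at 0, and library 3 was again the lowest of the mutant-labelled group. The part of these markers in the rise of Cdhr4 was not tested.

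**Figure D3:**
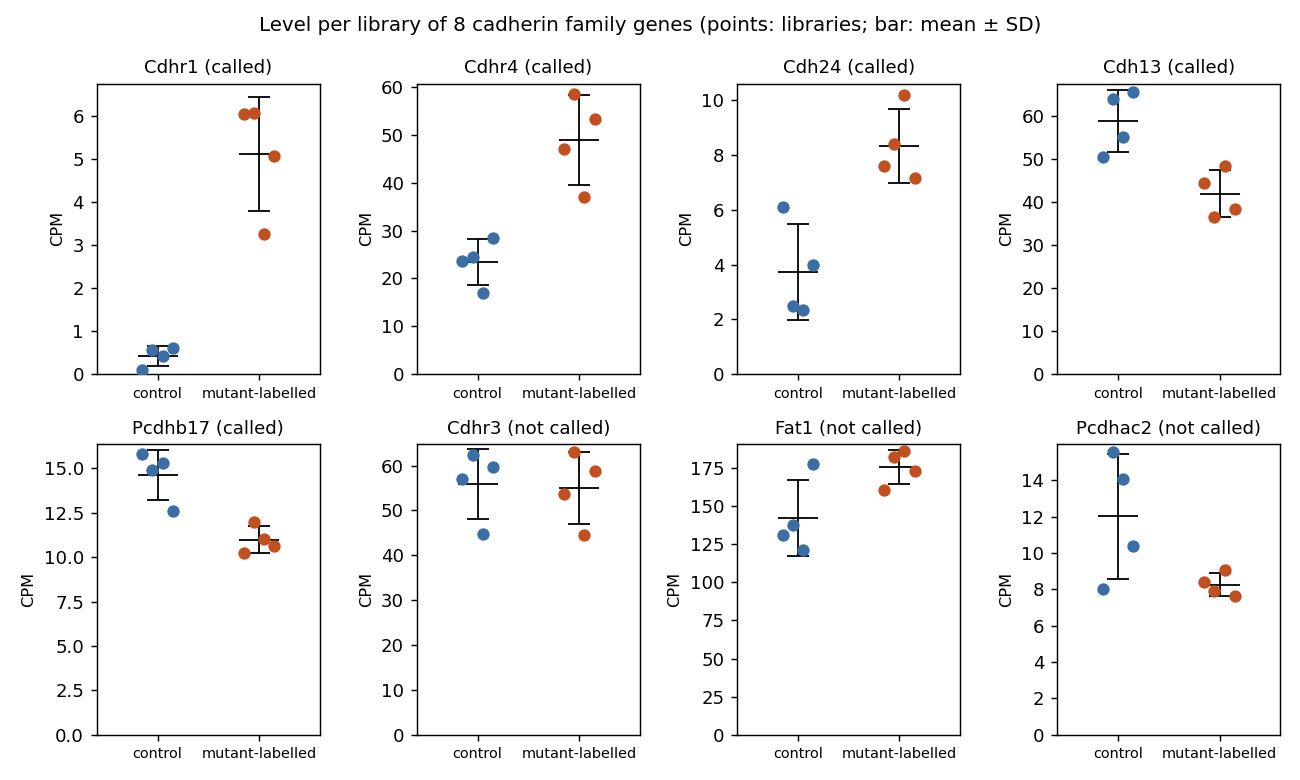
CPM per library for 8 members (points: libraries; horizontal bar and whiskers: mean ± SD, n = 4 each; each vertical axis starts at 0). The groups separate for Cdhr1, Cdhr4, Cdh24, Cdh13 and Pcdhb17 and overlap for Cdhr3, Fat1 and Pcdhac2.

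Cdh26, an epithelial cadherin that binds integrins, and Cdh23, a tip-link cadherin, were low. Cdh26 ran from 1.73 to 4.05 CPM in controls and from 1.12 to 2.54 CPM in mutant-labelled libraries, with a log2 fold change of -0.40 and an adjusted p of 0.469 by the edgeR quasi-likelihood test (Benjamini-Hochberg). The fold change, on the log2 scale, moved to -0.08 without control 4, -0.22 without mutant-labelled library 3 and -0.19 without controls 1 and 4. In the other direction it moved to -0.55 without control 1, -0.57 without mutant-labelled library 4 and -0.57 without controls 2 and 3. Cdh23 ran from 0.353 to 1.73 and from 0.589 to 1.29 CPM. The brush-border cadherins Cdhr2 and Cdhr5 were not tested: Cdhr2 had 0 counts in all controls and 4 over the mutant-labelled libraries, and Cdhr5 had 16 and 22. Of the 12 tip-link and brush-border partners listed, 7 were tested, and 0 were called by edgeR's test or limma-voom in either direction, with 2 higher and 1 lower at an unadjusted p under 0.05. DESeq2 called the scaffold gene Whrn higher, whose adjusted p was 0.0768 by the same edgeR test, at 5.12 ± 2.04 CPM in controls against 9.13 ± 1.04 CPM in mutant-labelled libraries.

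The 250 bases before the RefSeq start (build GRCm38.p6) are shown for the 3 genes that rose and, for contrast, for Cdhr3, which was not called. Each is written 5′ to 3′ along the gene's strand, and capitals mark a match to a searched motif. They lie at chr14:37098348-37098597 (Cdhr1, minus strand), chr9:107992207-107992456 (Cdhr4, plus strand), chr14:54641365-54641614 (Cdh24, minus strand) and chr12:33092876-33093125 (Cdhr3, minus strand).
Cdhr1: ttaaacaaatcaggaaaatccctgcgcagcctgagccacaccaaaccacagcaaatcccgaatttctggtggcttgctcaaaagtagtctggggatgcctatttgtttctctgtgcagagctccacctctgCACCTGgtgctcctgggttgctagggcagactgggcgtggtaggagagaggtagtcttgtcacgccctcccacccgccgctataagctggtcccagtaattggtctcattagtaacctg
Cdhr4: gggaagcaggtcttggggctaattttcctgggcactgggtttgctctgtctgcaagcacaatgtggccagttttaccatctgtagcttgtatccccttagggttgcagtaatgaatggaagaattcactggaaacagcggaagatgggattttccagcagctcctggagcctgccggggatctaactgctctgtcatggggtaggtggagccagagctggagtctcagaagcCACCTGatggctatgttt
Cdh24: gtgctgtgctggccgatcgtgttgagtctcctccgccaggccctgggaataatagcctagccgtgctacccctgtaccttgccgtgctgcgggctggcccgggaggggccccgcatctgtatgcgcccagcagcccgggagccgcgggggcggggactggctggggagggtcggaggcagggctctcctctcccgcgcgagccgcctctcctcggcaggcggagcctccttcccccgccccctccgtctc
Cdhr3: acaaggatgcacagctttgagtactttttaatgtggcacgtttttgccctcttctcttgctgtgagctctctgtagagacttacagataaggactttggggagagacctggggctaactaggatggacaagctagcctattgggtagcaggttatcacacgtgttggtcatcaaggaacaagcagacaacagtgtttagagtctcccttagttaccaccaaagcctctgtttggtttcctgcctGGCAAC
The motifs searched on both strands were the RFX X-box motif GTTGCC, the FOXJ1 site GTAAACA and the E-box CAGGTG. The E-box was found in Cdhr1, 119 to 114 bases before the start, and in Cdhr4, 18 to 13 bases before it, each on the strand opposite to the gene, so the printed strand reads CACCTG. The RFX motif was found in Cdhr3, 6 to 1 bases before the start and also on the opposite strand, and the Cdh24 window holds none of these letters. Over 32851 RefSeq windows of the same length, 17.2% hold the E-box, 10.4% the RFX motif and 3.17% the FOXJ1 site. Of the 35 windows that belong to 32 members, 6 hold the E-box (17.1%), 1 the RFX motif and 0 the FOXJ1 site. These matches describe letters only. The Cdh24 window was the richest in G and C, at 72.8%, beside 53.2% in Cdhr1, 52.0% in Cdhr4 and 47.2% in Cdhr3.

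Of the 14 type I and type II cadherins, 5 were tested, and Cdh24 rose. Cdh24 (ENSMUSG00000059674, chromosome 14, 54631231 to 54641364, minus strand), a type II cadherin that binds catenins, stood at 6.12, 2.48, 2.35 and 4.0 CPM in controls and at 7.60, 8.40, 10.2 and 7.15 CPM in mutant-labelled libraries. The groups did not overlap, but the controls themselves spread widely, with controls 2 and 3 the lowest. Cdh24 rose 2.20-fold (95% interval 1.41 to 3.45), from 3.74 ± 1.75 to 8.34 ± 1.34 CPM (SD, n = 4 each), with a log2 fold change of 1.14 ± 0.29 (SE) and an adjusted p of 0.0429 by the edgeR quasi-likelihood test (Benjamini-Hochberg). The call was lost when any library except control 1 was left out, with adjusted p of 0.0984, 0.0844 and 0.0537 without controls 2, 3 and 4 and of 0.0982, 0.104, 0.114 and 0.0804 without mutant-labelled libraries 1 to 4 in the same edgeR test. Without controls 2 and 3 the log2 fold change was 0.72 (adjusted p = 0.112), and without controls 1 and 4 it was 1.78 (adjusted p = 9.31e-05).

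Cdh11 (chromosome 8), a type II cadherin of mesenchymal cells, had by far the most reads of these genes. It stood at 63.4, 61.2, 61.4 and 99.7 CPM in controls and at 72.8, 69.8, 83.0 and 81.8 CPM in mutant-labelled libraries. Control 4 was the highest of all 8, and every mutant-labelled library lay above the other 3 controls. The log2 fold change was 0.10 ± 0.16 (SE) and the adjusted p 0.714 by the edgeR quasi-likelihood test (Benjamini-Hochberg), but without control 4 they were 0.31 and 0.0407. For Cdh11 the log2 fold change was -0.08 without controls 2 and 3, and 0.32 without controls 1 and 4 (adjusted p = 0.00818 by the same edgeR test). Fibroblast and smooth muscle markers also differed between controls, with a summed level of 2404 to 2681 CPM in controls 1 to 3, 3520 CPM in control 4 and 3036 to 3708 CPM in mutant-labelled libraries. Of that list's 10 genes Col3a1, a fibrillar collagen, rose, beside 5.45% of all tested genes, and none was at 0. The list did not move as one: 4 log2 fold changes were above 0, the collagen genes Col3a1, Col1a1 and Col1a2 at 0.70, 0.91 and 0.38 and Lum at 0.21, and 6 were below 0, with Dcn the lowest at -0.37 and a median of -0.04. Its part in the level of Cdh11 was not tested.

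Cdh4, or R-cadherin, and Cdh6, or K-cadherin, were low and not called, at 3.88 to 6.40 and 1.93 to 3.89 CPM over all libraries. Cdh22, a cadherin best known from brain, had the lowest log2 fold change of this subfamily, -0.38 ± 0.38 (SE), at 0.823 to 2.77 CPM in controls and 1.04 to 1.62 CPM in mutant-labelled libraries. Its controls 1 and 4 lay above all mutant-labelled libraries, and its controls 2 and 3 lay below them, control 2 only just, at 1.03 CPM. The log2 fold change was -0.89 without controls 2 and 3, 0.52 without controls 1 and 4 and -0.04 without control 4 alone. The other 9 genes were not tested, and none reached more than 16 counts in a library. Among these, Cdh8 and Cdh12 had 0 counts in all controls, with 4 and 2 counts over the mutant-labelled libraries. The list of 12 cytoplasmic partners, the catenins and their binders, had 11 tested genes and 0 called in either direction by edgeR's test, DESeq2 or limma-voom, with 1 higher and 1 lower at an unadjusted p under 0.05. Its summed level was 2510 to 2966 CPM in controls and 2563 to 2742 CPM in mutant-labelled libraries, and Plekha7, an adherens junction protein, had the lowest adjusted p, 0.109 by the edgeR quasi-likelihood test (Benjamini-Hochberg).

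Cdh13, which encodes T-cadherin, a lipid-anchored cadherin without a cytoplasmic tail that binds adiponectin, fell. Cdh13 (ENSMUSG00000031841, chromosome 8, 118283733 to 119324921, plus strand) stood at 50.4, 64.0, 55.1 and 65.6 CPM in controls and at 44.4, 36.6, 48.3 and 38.3 CPM in mutant-labelled libraries. The groups did not overlap, and the nearest values were control 1 and mutant-labelled library 3. Cdh13 fell 1.40-fold (95% interval 1.17 to 1.68), from 58.8 ± 7.23 to 41.9 ± 5.46 CPM (SD, n = 4 each), with a log2 fold change of -0.49 ± 0.12 (SE) and an adjusted p of 0.0327 by the edgeR quasi-likelihood test (Benjamini-Hochberg). In the same edgeR test the call was lost without controls 2 and 3 each (adjusted p = 0.0860 and 0.0502), without mutant-labelled libraries 1, 2 and 4 each (0.0744, 0.0934 and 0.0920), and when library totals replaced the scaling factors (0.0529). Without controls 2 and 3 together the log2 fold change was -0.47 (adjusted p = 0.107), and without controls 1 and 4 it was -0.51 (adjusted p = 0.00648).

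Endothelial markers moved beside Cdh13. Of the 10 listed, 4 fell, Tek, Ramp2, Cdh5 and Pecam1, and 0 rose, while DESeq2 called 9 lower. Over all tested genes, edgeR's test called 2.36% lower and DESeq2 called 5.54% lower. Tek, an angiopoietin receptor, went from 424.3 ± 91.4 to 269.6 ± 12.2 CPM and Ramp2, an adrenomedullin co-receptor, from 426.2 ± 90.9 to 280.6 ± 24.3 CPM. The list's summed level was 4667 to 5932 CPM in controls and 3816 to 4256 CPM in mutant-labelled libraries, with none at 0. Alveolar type I markers were listed too, and 1 of 8 fell, Rtkn2, while DESeq2 called 3 lower (Emp2, Hopx and Rtkn2), with a summed level of 6641 to 7923 and 6628 to 6680 CPM. In this list 7 log2 fold changes were below 0 and 1 was above. That was Aqp5 at 0.32, from 350.3 ± 70.6 to 437.5 ± 18.9 CPM, which was not called. The part of either list in the fall of Cdh13 was not tested. Cdh16, the kidney-type 7D cadherin, was not called, at 13.5, 19.6, 15.8 and 22.9 CPM in controls and 17.1, 17.9, 27.2 and 16.2 CPM in mutant-labelled libraries. Its log2 fold change was 0.13 ± 0.21 (SE), with overlapping groups and with mutant-labelled library 3 above all others. Cdh17, the intestinal 7D cadherin, had 19 counts over the controls and 33 over the mutant-labelled libraries and was not tested.

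All 6 Fat and Dachsous genes were tested and 0 were called by edgeR's test, DESeq2 or limma-voom, with 1 higher (Fat1) and 1 lower (Fat4) at an unadjusted p under 0.05. Fat1, a giant cadherin that organises actin and is a tumour suppressor, stood at 131, 138, 121 and 178 CPM in controls and at 161, 182, 186 and 173 CPM in mutant-labelled libraries. Control 4 overlapped the mutant-labelled group and the other 3 controls lay below it. The log2 fold change was 0.31 ± 0.12 (SE), at an adjusted p of 0.137 by the edgeR quasi-likelihood test (Benjamini-Hochberg), and without control 4 they were 0.43 and 0.0123. In the same edgeR test they were 0.19 and 0.455 without controls 2 and 3, and 0.44 and 0.00130 without controls 1 and 4. Fat4, the receptor of Dachsous, was the lowest of the subfamily in log2 fold change, at -0.37 ± 0.16 (SE) and an adjusted p of 0.195 by the same edgeR test. Its level was 32.7, 41.4, 35.3 and 55.6 CPM in controls and 29.4, 28.4, 35 and 35.2 CPM in mutant-labelled libraries, so the groups overlapped only through control 1. The log2 fold change of Fat4 was -0.19 without control 4 and -0.46 without control 1. It was -0.46 without controls 2 and 3 and -0.26 without controls 1 and 4.

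Dchs1, the Dachsous ligand, showed a split among controls instead. It stood at 42.8, 20.7, 23.7 and 46.6 CPM in controls 1 to 4 and at 32.5, 32.9, 40.1 and 33.4 CPM in mutant-labelled libraries, so that controls 1 and 4 lay above and controls 2 and 3 below all mutant-labelled libraries. Its log2 fold change was 0.05 in all libraries, -0.36 without controls 2 and 3 (adjusted p = 0.0817 by the same edgeR test) and 0.64 without controls 1 and 4 (0.000896). Fat3, a cadherin of neuronal shape, ran from 16.2 to 22.7 CPM, Fat2 from 2.59 to 5.48 CPM and Dchs2 from 0.863 to 1.53 CPM over all libraries. Of the 12 listed partners of the Fat and Dachsous pathway 11 were found and tested, and 0 were called by edgeR's test or limma-voom, with 2 higher and 2 lower at an unadjusted p under 0.05. DESeq2 called the scaffold gene Dlg5 higher, at 39.1 ± 6.05 CPM in controls against 51.2 ± 3.06 CPM in mutant-labelled libraries (adjusted p = 0.0616 by the same edgeR test), and called Mpdz, a multi-PDZ scaffold, lower, at 61.2 ± 8.78 and 48.5 ± 3.22 CPM (0.0849).

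Of the 12 non-clustered protocadherins 7 were tested, and 0 were called by edgeR's test, DESeq2 or limma-voom, or had an unadjusted p under 0.05. All 7 had log2 fold changes below 0, from -0.75 to -0.03. Pcdh1 stood at 307, 178, 204 and 294 CPM in controls and at 232, 255, 255 and 200 CPM in mutant-labelled libraries. Controls 1 and 4 were above every mutant-labelled library and control 2 was below them all. Its log2 fold change was -0.06, with a 95% interval of the ratio from 0.729 to 1.26, and it went to -0.35 without controls 2 and 3 (adjusted p = 0.0967 by the edgeR quasi-likelihood test (Benjamini-Hochberg)) and to 0.30 without controls 1 and 4 (0.0467). Pcdh12, known as a vascular endothelial protocadherin, stood at 53.3, 48.0, 45.2 and 57.5 CPM in controls and at 40.1, 40.9, 57.5 and 36 CPM in mutant-labelled libraries. The groups overlapped through mutant-labelled library 3 alone, and the adjusted p was 0.353 by the same edgeR test, beside the endothelial markers that fell. The log2 fold change of Pcdh12 was -0.23, and it was -0.39 without mutant-labelled library 3, -0.34 without controls 2 and 3 and -0.10 without controls 1 and 4.

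Pcdh20 had the lowest log2 fold change of all tested members, -0.75 ± 0.37 (SE), with an adjusted p of 0.240 by the same edgeR test. It stood at 1.78, 4.55, 4.41 and 2.46 CPM in controls and at 1.27, 3.05, 2.02 and 1.45 CPM in mutant-labelled libraries, with controls 2 and 3 the highest. Its fold change on the log2 scale went to -0.12 without controls 2 and 3 (adjusted p = 0.904 by the same edgeR test) and to -1.21 without controls 1 and 4 (0.0101). Pcdh18 ran from 21.4 to 30.4 CPM and Pcdh7 from 7.74 to 10.9 CPM over all libraries, with log2 fold changes of -0.07 and -0.03. Pcdh17 ran from 28.1 to 47.3 CPM, and Pcdh19, the X-linked gene of a female-limited epilepsy, from 4.42 to 6.87 CPM. The 5 untested genes, Pcdh8, Pcdh9, Pcdh10, Pcdh11x and the tip-link gene Pcdh15, had at most 13 counts in a library. Among 12 genes of protocadherin signalling, which include the WAVE actin complex and the kinases that clustered protocadherins inhibit, 0 were called by edgeR's test or limma-voom, with 0 higher and 2 lower at an unadjusted p under 0.05. These were Brk1, a WAVE subunit, and Ptk2, the focal adhesion kinase, which DESeq2 called lower and whose adjusted p was 0.0815 and 0.0899 by the same edgeR test.

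The clustered genes lie on chromosome 18, with 14 members in the alpha, 22 in the beta and 21 in the gamma array. Reads in the constant exons that alpha genes share, and in those that gamma genes share, were not counted for any gene, so their levels come from variable exons. Of the alpha genes only Pcdhac2, the last variable exon and of the C type, was tested. It stood at 8.0, 15.6, 14 and 10.4 CPM in controls and at 8.40, 7.91, 9.07 and 7.61 CPM in mutant-labelled libraries, so that controls 2 and 3 were the highest and control 1 overlapped the mutant-labelled group. Its log2 fold change was -0.54 ± 0.20 (SE), at an adjusted p of 0.127 by the edgeR quasi-likelihood test (Benjamini-Hochberg), and without control 1 they were -0.69 and 0.0183. For Pcdhac2 the log2 fold change went to -0.16 without controls 2 and 3 (adjusted p = 0.651 by the same edgeR test) and to -0.85 without controls 1 and 4 (0.000345). Pcdhac2 made up 94.5% of the summed alpha level in controls and 93.2% in mutant-labelled libraries. The sum was 12.7 ± 3.53 CPM in controls against 8.85 ± 0.89 CPM in the mutant-labelled group (SD, n = 4 each).

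The beta array was spread over many genes, with 20 of 22 tested, 16 of them with log2 fold changes below 0, and 1 call. Over all tested genes 49.1% were above 0. The signs depended in part on the controls: Pcdhb9, at -0.03, went to 0.17 without controls 2 and 3. Pcdhb6, Pcdhb8 and Pcdhb12 stood at 0.25, 0.21 and 0.11 without controls 2 and 3. Without controls 1 and 4 these genes stood at -0.32, -0.32 and -0.34. Others, such as Pcdhb17 and Pcdhb22, stayed below 0 in both fits. Pcdhb17 (ENSMUSG00000046387), a beta gene of a single exon, stood at 15.8, 14.9, 15.3 and 12.6 CPM in controls and at 10.2, 12, 11 and 10.6 CPM in mutant-labelled libraries. The groups did not overlap, with control 4 and mutant-labelled library 2 the nearest. Pcdhb17 fell 1.33-fold (95% interval 1.13 to 1.57), from 14.6 ± 1.41 to 10.98 ± 0.75 CPM (SD, n = 4 each), with a log2 fold change of -0.41 ± 0.11 (SE) and an adjusted p of 0.0437 by the edgeR quasi-likelihood test (Benjamini-Hochberg). The call was lost in 13 of 19 alternatives. In the same edgeR test the adjusted p was 0.0543, 0.101 and 0.107 without controls 1, 2 and 3, and 0.138, 0.0759, 0.0977 and 0.108 without mutant-labelled libraries 1 to 4, 0.0505 with the GC trend removed, 0.162 without controls 2 and 3 together, and 0.00663 without controls 1 and 4.

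Pcdhb22 stood at 6.07, 8.82, 7.64 and 7.94 CPM in controls and at 5.93, 6.32, 5.77 and 5.80 CPM in mutant-labelled libraries, overlapping through control 1. Its log2 fold change was -0.35 ± 0.14 (SE), at an adjusted p of 0.150 by the edgeR quasi-likelihood test (Benjamini-Hochberg), and without control 1 they were -0.45 and 0.0402. In the same edgeR test they were -0.23 and 0.495 without controls 2 and 3, and -0.47 and 0.0220 without controls 1 and 4. Pcdhb9 ran from 8.48 to 15.2 CPM over all libraries. Pcdhb5, the largest beta log2 fold change at 0.15, ran from 1.69 to 3.59 CPM. The summed beta level was 80.5, 88.3, 94.2 and 84.6 CPM in controls and 78.0, 70.6, 85.8 and 72.6 CPM in mutant-labelled libraries, so that the sums overlapped through mutant-labelled library 3.

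In the gamma array 20 of 21 genes were tested, and 0 were called by edgeR's test, DESeq2 or limma-voom or had an unadjusted p under 0.05. Log2 fold changes ran from -0.27 for Pcdhgb2 to 0.40 for Pcdhgc4, with 10 above and 10 below 0. Pcdhgc3, a C-type gene, gave 31.8% of the summed gamma level in controls and 34.8% in mutant-labelled libraries. It stood at 41.2, 20.4, 18.8 and 42.9 CPM in controls and at 32.6, 31.7, 38.6 and 35.4 CPM in mutant-labelled libraries, so all mutant-labelled libraries fell between the low controls 2 and 3 and the high controls 1 and 4. Its log2 fold change was 0.16 ± 0.26 (SE) over all libraries, -0.28 without controls 2 and 3 and 0.82 without controls 1 and 4 (adjusted p = 0.000128 by the edgeR quasi-likelihood test (Benjamini-Hochberg)). Pcdhgc4, another C-type gene, known from neuronal survival, stood at 2.50, 1.10, 1.70 and 3.28 CPM in controls and at 2.53, 2.56, 3.14 and 3.26 CPM in mutant-labelled libraries. For Pcdhgc4 the log2 fold change was -0.0026 without controls 2 and 3, 1.02 without controls 1 and 4 (adjusted p = 0.0110 by the same edgeR test) and 0.20 without control 2 alone. Pcdhgb2 and Pcdhgb6 ran from 6.27 to 11.3 and from 7.43 to 11.4 CPM over all libraries. The summed gamma level was 97.1 ± 19.8 CPM in controls against 99.2 ± 8.31 CPM in mutant-labelled libraries. Of 12 genes for promoter choice in these arrays, such as those of CTCF, cohesin and DNA methylation, 0 were called by edgeR's test or limma-voom, with 0 higher and 2 lower at an unadjusted p under 0.05. DESeq2 called the cohesin gene Stag2 lower, whose adjusted p was 0.0711 by the same edgeR test.

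**Figure D4:**
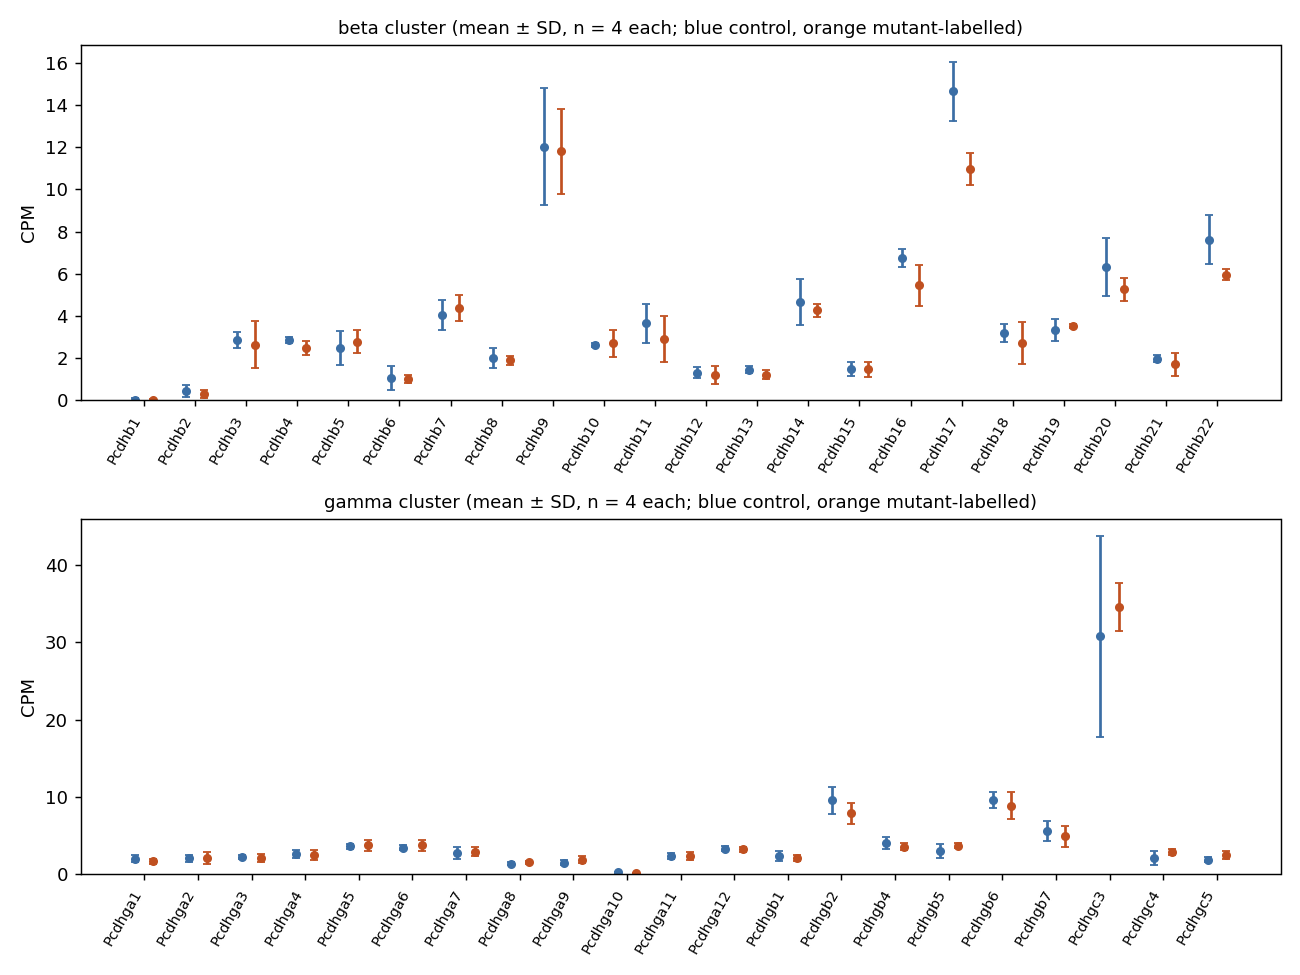
CPM of each beta and gamma gene (points: mean; whiskers: SD, n = 4 each; blue: control, orange: mutant-labelled; levels are not divided by length). Pcdhb17 lies at 14.6 CPM in controls against 10.98 CPM in mutant-labelled libraries, and Pcdhgc3 stands above the other gamma genes with a wide spread among controls.

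The split of the controls was seen over all tested genes and is counted here for the members. In 22 of the 66 tested members controls 2 and 3 were both below controls 1 and 4, which is 33.3%. That is near the 29.5% of all tested genes. In 8 members, or 12.1%, controls 2 and 3 were both above, beside 31.8% of all tested genes. The gamma array gave 12 of the 22, and the beta array gave 5 of the 8. Each of these arrays holds 20 of the 66 tested members. The median GC content of the longest transcript was 52.9% in the 22, 45.3% in the 8 and 48.8% in the remaining 36. No such medians are given here for all tested genes. Whether GC content has a part in this order was not tested. Without controls 1 and 4, where 21.5% of all tested genes were called higher and 19.2% lower, the 9 members called higher by edgeR's test were Cdh11, Cdh24, Cdhr1, Cdhr4, Dchs1, Fat1, Pcdh1, Pcdhgc3 and Pcdhgc4, and the 6 called lower were Cdh13, Cdh19, Pcdh20, Pcdhac2, Pcdhb17 and Pcdhb22.

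**Figure D5:**
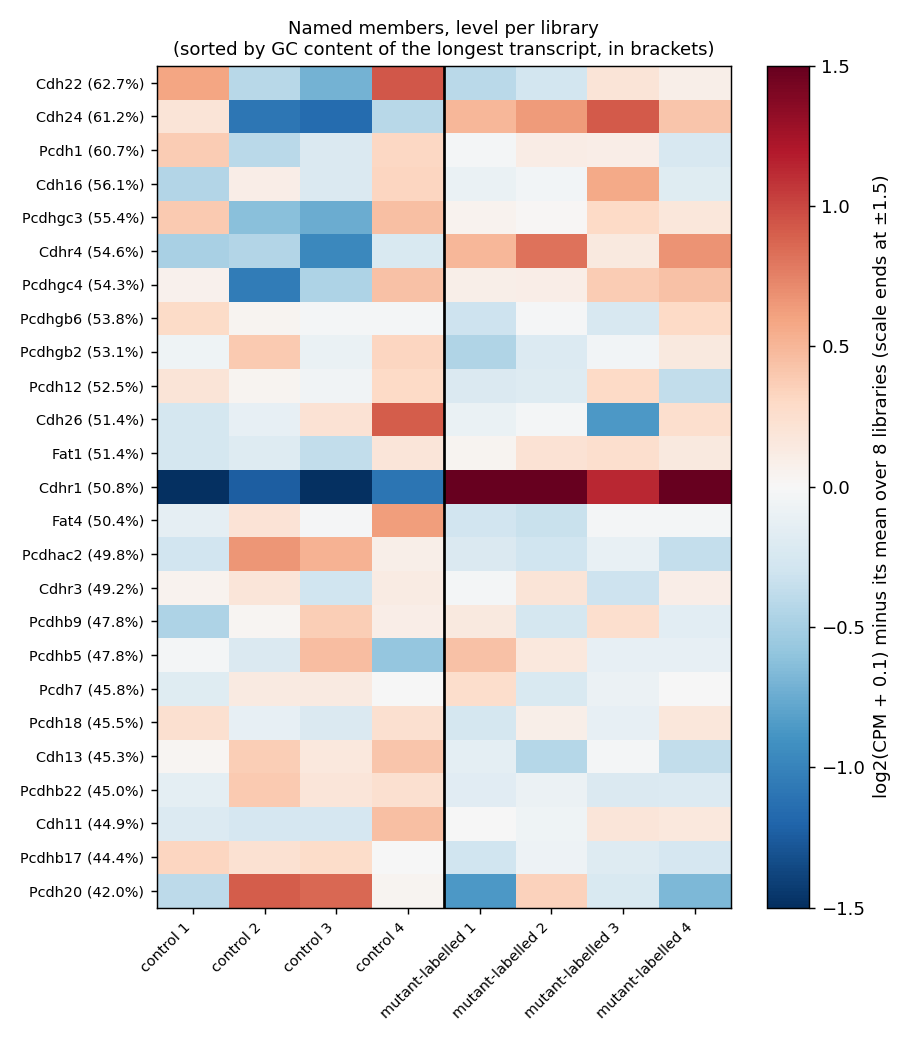
Level of each of the 25 named members per library as log2(CPM + 0.1) minus the gene's mean over the 8 libraries (red: above, blue: below; colours end at ±1.5), sorted by the GC content of the longest transcript. Controls 2 and 3 are blue for most genes of high GC content, such as Cdh22, Cdh24, Pcdh1 and Pcdhgc3, and red for Pcdh20 and Pcdhac2.

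The remaining marker lists give the setting of these values. Over all tested genes, edgeR's test called 5.45% higher and 2.36% lower. All 5 pan-epithelial genes rose, with a summed level of 414 to 566 CPM in controls and 911 to 1093 CPM in mutant-labelled libraries, and 5 of 8 club genes fell, among them Scgb1a1 and the cytochrome gene Cyp2f2. Of 8 myeloid genes 3 rose, Mrc1, Chil3 and Cd68, and the other 5 were not called, with log2 fold changes from -0.36 (Csf1r) to -0.06 (Lyz2) and a list median of -0.09. Of 3 neuroendocrine genes tested Calca rose, and of 8 alveolar type II genes, 4 basal genes tested and 7 lymphoid genes 0 were called by edgeR's test, DESeq2 or limma-voom, with 1 alveolar type II gene higher at an unadjusted p under 0.05. Basal markers summed to 5.43 to 15.4 CPM over all libraries, neuroendocrine markers to 7.03 to 10.9 CPM and lymphoid markers to 32.0 to 68.1 CPM, with none of these markers at 0 in all libraries. The part of these lists in the values of the cadherin genes was not tested.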

How the data were processed

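The deposited table holds raw counts of read pairs per gene in 8 columns, 1 per library, and all were used. Per the file headers, the authors counted with featureCounts 1.6.2 against GENCODE M25 on GRCm38, without using strand, and left out read pairs that mapped to several places or overlapped more than 1 gene. The column headers of all 8 libraries name STAR as the aligner. Other tools listed in the submitters' processing notes, with no role given, are Bowtie2 and Cufflinks. The labels name both a stranded kit and an older kit, and do not assign them to libraries. Symbols, gene types and GC content came from GENCODE M21 (also GRCm38), where 99.53% of identifiers were found. Shared exon bases came from the exon coordinates deposited with the counts (GENCODE M25). Promoter windows came from RefSeq on GRCm38.p6, trimmed to the 250 bases before the start.

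Genes passing filterByExpr (minimum count 10, minimum total 15) were scaled with TMM and compared with edgeR 4.0.16 in R 4.3.3 (quasi-likelihood test, robust fit, group as the only term, Benjamini-Hochberg threshold 0.05). Standard errors were derived from the F statistic. On simulated data with 16964 genes the test recovered 40.3% of 1.5-fold, 70.1% of 2-fold and 97.0% of 4-fold changes, while unchanged genes made up 6.76% of its calls. The simulation varied genes independently and changed only genes whose average log2 CPM was above 0.

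Alternatives covered other scaling and filters, DESeq2 1.42.0, limma-voom (limma 3.58.1), a replicate block, removal of each library's GC trend, and leaving out libraries. Members named were those called, those with an unadjusted p under 0.05, the 12 highest per kilobase and the largest and smallest log2 fold change of each subfamily. Of the partner and marker lists, those with the lowest adjusted p were named. Other genes, such as Dchs1 and Cdh19, are named to give the content of a count and were chosen after their values were seen. The members and lists were chosen with earlier results of these data known.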

Additional observations from a re-analysis of the deposited data

Results flagged for a closer look

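In the 25 named members, each group of 4 libraries was searched for a library far from the others, by the gap to its nearest neighbour as a share of the group's range. The search covered 50 groups, of which 2 passed Dixon's 95% critical value, and chance flags about 1 group in 20. Cdh11 in control 4 stood at 99.7 CPM, beside 61.2 to 63.4 CPM in the other 3 controls. Cdh16 in mutant-labelled library 3 stood at 27.2 CPM, beside 16.2 to 17.9 CPM in the other 3 libraries of its group.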

How the results depend on the processing

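Cdhr1 and Cdhr4 kept their call in all 19 alternatives. Cdh13 lost it in 9, Cdh24 in 10 and Pcdhb17 in 13, always with the same direction. The number of members called lower, 2, was 0 with library totals as scaling, 1 without the filter, 1 with the GC trend removed and 0 without controls 2 and 3. Without controls 1 and 4 the members called were 9 higher and 6 lower. DESeq2 called 939 genes lower in place of 401. Without controls 2 and 3 the fit called 223 genes lower, and without controls 1 and 4 it called 3750 higher and 3338 lower. Leaving out 1 library gave 515 to 1517 genes higher, 146 to 1117 lower, 2 to 4 members higher and 0 to 3 lower. The log2 ratio of the alpha sum went from -0.52 to -0.15 without controls 2 and 3, and that of the gamma sum from 0.03 to -0.20 without controls 2 and 3 and to 0.30 without controls 1 and 4. The cause of these shifts was not tested beyond the change each alternative makes.

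The replicate block left 865 genes higher and 371 lower, and 2 members higher (Cdhr1 and Cdhr4) and 0 lower. With the GC trend removed as well, the members were again 2 and 0. Same-numbered libraries correlated at 0.007, 0.13, -0.12 and 0.13 after the group means were removed, and 2 of the 4 controls matched their own number best. With only 4 numbers to compare, these values cannot decide whether the numbers pair the libraries.

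Several uncalled members turned in sign. Cdhr3 (-0.02) turned to 0.033 with library totals and to 0.0398 without controls 1 and 4, and leaving out 1 library gave -0.12 to 0.066. Pcdh1 (-0.06) turned to 0.30 without controls 1 and 4, and leaving out 1 library gave -0.19 to 0.0638. Pcdh7 (-0.03) turned to 0.0354 with library totals, 0.0028 with the GC trend removed and 0.0907 without controls 2 and 3, with -0.1275 to 0.0419 over the libraries left out. Pcdhb9 (-0.03) turned to 0.039 with library totals and 0.17 without controls 2 and 3, with -0.1646 to 0.1033 over the libraries left out. Pcdhgc3 (0.16) turned to -0.28 without controls 2 and 3 and ranged from -0.0178 to 0.3593 with 1 library left out, and Cdh16 (0.13) ranged from -0.0723 to 0.2686. Without controls 2 and 3, Cdh11 (0.10) turned to -0.0822 and Pcdhgc4 (0.40) to -0.0026. Without controls 1 and 4, Cdh22 (-0.38) turned to 0.52, Pcdh18 to 0.15 and Pcdhb5 to -0.0778. The 33 untested members had at most 16 counts in a library, and depth limits any comparison of them.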
